A study of Mus musculus with 9 samples.

Results

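The 3 mature miRNAs of the mouse miR-129 family were followed in subcutaneous fat: miR-129-5p, miR-129-1-3p and miR-129-2-3p. They were picked by name and are 3 of the 860 mature miRNAs in the deposited files. The choice was made with values of these data in view, because miR-129-1-3p and miR-129-2-3p held the highest rises of Homo_KO over WT. That contrast is therefore only described here, and its calls and p-values are not read as tests of the arms. The study sequenced small RNA from 9 mice, 3 labelled WT, 3 labelled Hete_KO and 3 labelled Homo_KO, and each library came from an individual animal. The knockouts target AGO1, an Argonaute protein that carries mature miRNAs to their target mRNAs, in endothelial cells, and the WT animals were littermates. Hete and Homo are read here as heterozygous and homozygous, and the labels do not state how many copies of the gene were lost in each. All mice were 24 weeks old and had eaten food rich in fat and sucrose since the age of 8 weeks, for 16 weeks in all, the controls included. What drives the knockout, the strain and the sex are not stated in the labels. In whole tissue, fewer cells of a type and less RNA per cell cannot be told apart.

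A miRNA hairpin gives 2 mature strands, or arms, named 5p and 3p, and bases 2 to 8 of an arm, its seed, choose the mRNAs it represses. The miR-129 arms are known as brain-enriched miRNAs that are made from 2 separate genes. In human cells, miR-129-5p has been studied as a repressor of the transcription factor SOX4 in tumours where the MIR129-2 gene is methylated, and miR-129-3p as a repressor of CP110, which favours the growth of cilia.

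The sequences of the 2 genes decide which reads can be told apart. Both hairpins and 2 of the 3 mature arms were found in RefSeq (GRCm38.p6, the assembly that mm10 names). The mature arms are shown first with the seed in capitals.
miR-129-5p: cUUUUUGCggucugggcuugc
miR-129-2-3p: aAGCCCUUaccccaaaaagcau
The hairpins follow with capitals for the stretch identical to miR-129-5p and for the stretch that best matches miR-129-2-3p.
Mir129-1 (chr6:29022619-29022691, plus strand): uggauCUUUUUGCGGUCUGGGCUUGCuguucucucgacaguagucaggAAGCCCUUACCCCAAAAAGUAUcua
Mir129-2 (chr2:94241364-94241453, minus strand): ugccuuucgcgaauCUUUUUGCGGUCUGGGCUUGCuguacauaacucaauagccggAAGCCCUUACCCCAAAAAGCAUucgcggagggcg

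The 21 bases of miR-129-5p occur without a difference in both hairpins, so its 1 value cannot be divided between the genes. The 22 bases of miR-129-2-3p differ from the Mir129-1 hairpin at 1 position, C20U, counted from 1 at the 5′ end of the arm. That position lies outside the seed, and both 3p stretches carry the seed AGCCCUU. Reads that end before it fit both genes, so the 3p arms may share reads and are not independent measurements. Neither seed occurs in another of the 1679 mature mouse miRNA names of the RefSeq table. In the GENCODE vM21 annotation of GRCm38, Mir129-1 overlaps, on the same strand, exonic sequence of Gm3294, a lincRNA gene. Mir129-2 lies in an intron of the noncoding gene Mir670hg, also on the same strand. Mir129b is annotated on the opposite strand over Mir129-2. Within 1 Mb of Mir129-2 the table has 3 hairpins, Mir129b, Mir670 and Mir7001, and no arm of any of them is among the 860 names; it has none within 1 Mb of Mir129-1.

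Levels are the authors' values per mature miRNA, on a log2(x + 1) scale that was quantile-normalized across libraries. A library's rank order is kept and its total is not, and the read depth is unknown. The arms differ by 1 base in length and were compared as deposited. The tie count, here the number of miRNAs that share the lowest value of their library, is given as a possible trace of depth. Its link to depth could not be checked, so a fit with the tie count is not a correction for depth. The tie count was 63 to 104 in WT, 101 to 152 in Hete_KO and 102 to 141 in Homo_KO. The labelled tissue was taken as given. The summed level of 9 miRNAs of adipose and stromal cells was log2 20.39 to 20.80 in the 9 libraries, led by miR-143-3p of smooth muscle and stroma. miR-143-3p stood at or near the top of the shared rank levels, so the normalization bounds this sum and it does not identify the tissue. In Hete_KO replicate 2 it was 20.44, beside 20.10 for the skeletal muscle miRNAs described below. The genotype labels were also taken as given, since the files hold no mRNA.

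All 3 arms were lowest in the WT mice, and every knockout library lay above every WT library. miR-129-5p was the most abundant arm. WT replicates 1, 2 and 3 had log2 levels of 4.16, 5.46 and 4.61. The Hete_KO mice had 5.78, 7.90 and 5.70, and the Homo_KO mice 6.44, 7.87 and 7.37. The highest WT value and the lowest Hete_KO value were 0.24 apart, while Homo_KO began 0.98 above WT. Among all libraries, ranked from the most abundant miRNA down, miR-129-5p stood between places 210 and 445 of 860. Its share of the summed back-transformed level was 2.53 to 6.43 ppm in WT, 7.61 to 35.5 in Hete_KO and 12.9 to 35.0 in Homo_KO.

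miR-129-1-3p, from the chromosome 6 gene, was near the bottom of the scale in WT. WT replicates 1, 2 and 3 had log2 levels of 1.06, 3.31 and 2.84, the Hete_KO mice 4.27, 6.33 and 4.36, and the Homo_KO mice 5.35, 5.77 and 5.42. WT replicate 1 stood apart, at place 688 of 860 with 15.1% of miRNAs below it, and the other WT libraries were at places 502 and 542. The 3 Homo_KO mice were close together (SD 0.22), whereas the SD was 1.17 in Hete_KO and 1.18 in WT (n = 3 each).

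miR-129-2-3p, from the chromosome 2 gene, followed the same order. The WT mice had log2 levels of 2.25, 3.54 and 2.95, the Hete_KO mice 4.57, 6.50 and 4.52, and the Homo_KO mice 5.58, 6.01 and 5.63 (replicates 1, 2 and 3). Between WT and each knockout genotype a gap was left, 0.97 to Hete_KO and 2.03 to Homo_KO. Hete_KO and Homo_KO overlapped for all 3 arms, because Hete_KO replicate 2 exceeded every Homo_KO library while the other Hete_KO mice lay under them. All 6 knockout libraries were above all 3 WT libraries in 31 of the 489 miRNAs tested (6.34%), the 3 miR-129 arms among them; since this order chose the family in part, nothing is read from it. Testing required a mean of at least log2 3.46 over the 9 libraries. In WT miR-129-1-3p averaged 2.40 and miR-129-2-3p averaged 2.92, under that level, so both 3p arms were tested only through their levels in the knockouts.

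**Figure D1:**
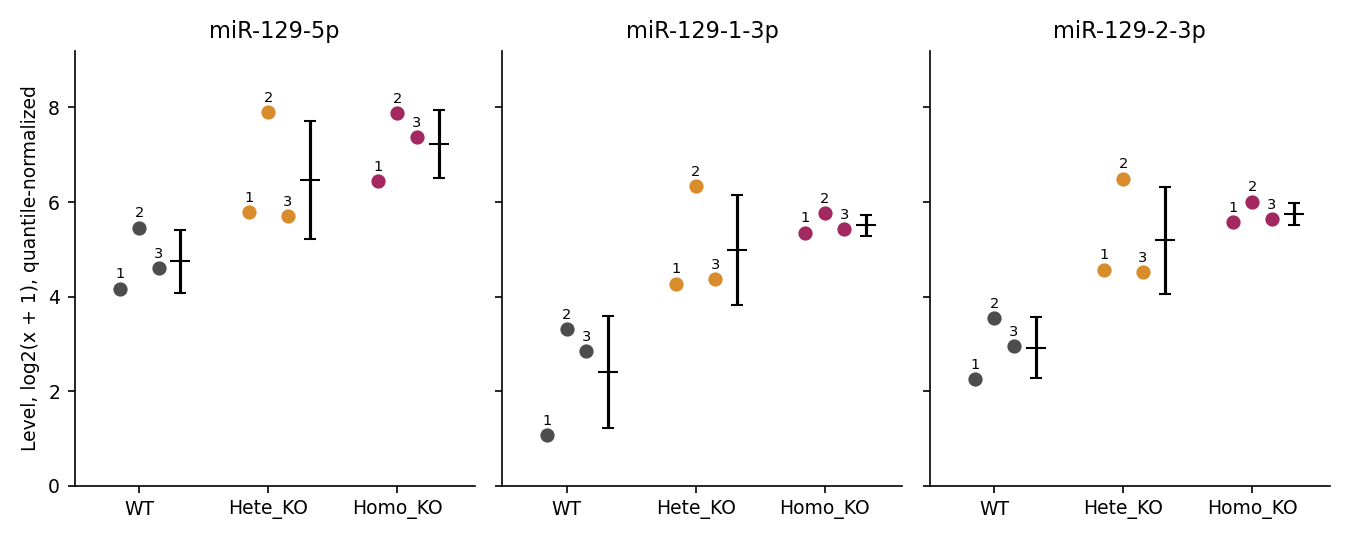
Level of each miR-129 arm in the 9 libraries (y axis, log2(x + 1), quantile-normalized) by genotype (x axis). Points are mice, numbered by replicate, and bars are the mean ± SD of 3. Every knockout mouse lies above every WT mouse, and Hete_KO replicate 2 lies above the Homo_KO mice.

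Homo_KO against WT is the contrast that brought the family to attention. miR-129-1-3p averaged log2 5.51 ± 0.22 in Homo_KO and 2.40 ± 1.18 in WT (SD, n = 3 each), a difference of 3.11 ± 0.67 (SE of the limma fit), or 8.62-fold on the x + 1 scale. The difference was 2.82 ± 0.54 for miR-129-2-3p (5.74 ± 0.23 against 2.92 ± 0.65) and 2.49 ± 0.62 for miR-129-5p (7.23 ± 0.73 against 4.74 ± 0.66). These differences ranked 1, 2 and 3 from the highest among the 489 miRNAs tested, whose median was 0.07. In 18.4% of the tested miRNAs the Homo_KO mice all lay above the WT mice, as they did for the 3 arms. By limma with Benjamini-Hochberg adjustment, 1.64% of the tested miRNAs were called higher (adjusted p under 0.05). The 2 3p arms were among these calls, which is how they were chosen, and nothing is read from that. The threshold fell between miR-129-1-3p, just inside, and miR-129-5p, just outside and taken in for its shared hairpins. Both 3p calls were lost when any WT or Homo_KO library was left out and when the muscle miRNA mean or the tie count was a covariate, and that of miR-129-1-3p also without Hete_KO replicate 3. miR-129-5p was called with library weights, in a fit of the compared groups alone and without Hete_KO replicate 2. Since this contrast chose the family, nothing is read from these passes either. The differences were 1.88 (miR-129-1-3p), 1.70 (miR-129-2-3p) and 1.16 (miR-129-5p) when the tie count was a covariate.

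**Figure D2:**
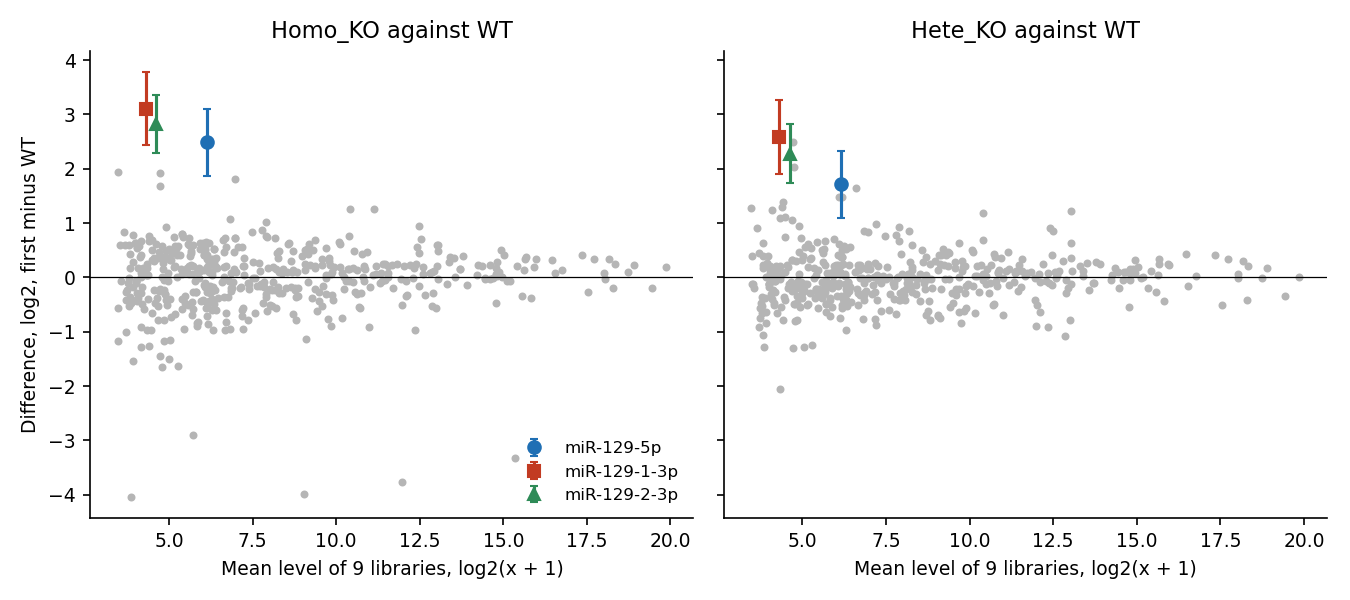
Difference from WT (y axis, log2) against the mean level of the 9 libraries (x axis, log2(x + 1)) for the 489 tested miRNAs, with Homo_KO on the left and Hete_KO on the right. Grey points are other miRNAs, coloured symbols are the miR-129 arms and bars are SE. In Homo_KO the arms hold the highest differences, 3.11, 2.82 and 2.49. In Hete_KO they are at 2.58, 2.28 and 1.72.

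The contrast that chose the family was Homo_KO against WT. Its WT mice are shared here, and the Hete_KO mice took part in the filter and in the spread of the fit. The Hete_KO contrast is therefore not independent of the choice. In Hete_KO all 3 arms had positive differences and none passed the test over all 489 miRNAs. Both 3p arms were tested only through their knockout levels, Hete_KO included, while their WT means lay under the filter. The filter thus favoured a rise, and their p-values and passes are given as a description. miR-129-1-3p averaged log2 4.99 ± 1.17 (SD, n = 3) and lay 2.58 ± 0.67 above WT (SE, 95% interval 1.07 to 4.10, limma adjusted p = 0.0879). The difference was 2.28 ± 0.54 for miR-129-2-3p (interval 1.06 to 3.49, limma adjusted p = 0.0797), from a Hete_KO mean of 5.19 ± 1.13. For miR-129-5p it was 1.72 ± 0.62 (interval 0.33 to 3.11, limma adjusted p = 0.203), from a mean of 6.46 ± 1.25. In this comparison 0.409% of the tested miRNAs were called. Without overlap and higher in Hete_KO were 8.59% of the tested miRNAs, the 3 arms among them. Hete_KO replicate 2 carried much of the difference in miR-129-5p, which was 0.997 without it. The miR-129-2-3p difference passed the test without Hete_KO replicate 1 (2.59, limma adjusted p = 0.0437; range 0.0200 to 0.364 over its alternatives), and both 3p arms passed when libraries were weighted. With the tie count as a covariate the differences were 1.36, 1.16 and 0.40 for miR-129-1-3p, miR-129-2-3p and miR-129-5p.

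Between the knockout genotypes the arms were not told apart at this number of mice. This contrast shares the Homo_KO mice with the one that chose the family. Homo_KO exceeded Hete_KO by 0.52 ± 0.67 for miR-129-1-3p (SE, 95% interval -0.99 to 2.04, limma adjusted p = 0.905). For miR-129-2-3p the difference was 0.55 ± 0.54 (interval -0.67 to 1.76, limma adjusted p = 0.867) and for miR-129-5p 0.77 ± 0.62 (interval -0.62 to 2.16, limma adjusted p = 0.813). The intervals span changes in both directions, so they do not show equal levels. No miRNA of the 489 was called here by limma (0.0%), and 41 (8.38%) had an unadjusted p under 0.05.

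The level of the arms ran beside the tie count. Hete_KO replicate 2 and Homo_KO replicate 2, with tie counts of 152 and 141, had the highest levels of all 3 arms. WT replicates 1 and 3, with 70 and 63, had the lowest. There were 4 libraries with similar tie counts, from 101 to 105. In these, miR-129-1-3p was at log2 3.31 in WT replicate 2, 4.27 and 4.36 in Hete_KO replicates 1 and 3, and 5.42 in Homo_KO replicate 3. miR-129-2-3p had the same order, at 3.54, 4.57, 4.52 and 5.63. For miR-129-5p the WT mouse was at 5.46, the Hete_KO mice at 5.78 and 5.70 and the Homo_KO mouse at 7.37. Among these 4 mice the Homo_KO library was highest for each arm and the WT library lowest. Every Homo_KO mouse exceeded every WT mouse in the contrast that chose the family. Their order here was therefore given beforehand, and nothing is read from it. What part the tie count has in the differences from WT was not tested beyond the covariate fits.

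**Figure D3:**
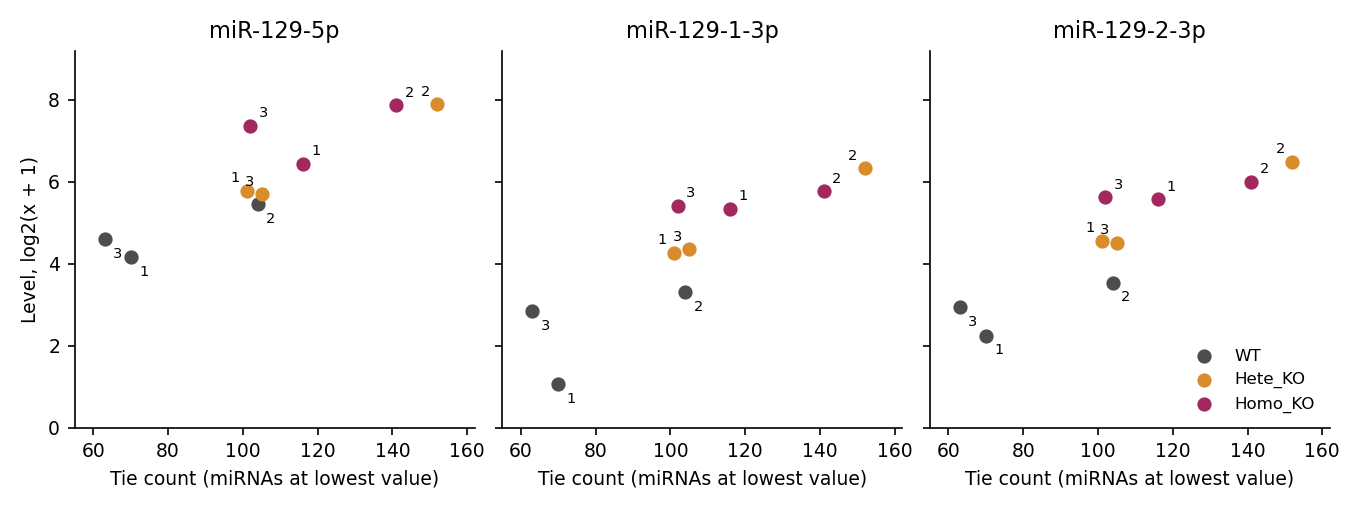
Level of each miR-129 arm (y axis, log2(x + 1)) against the tie count, the miRNAs that share the library's lowest value (x axis). Points are libraries coloured by genotype and numbered by replicate. At tie counts of 101 to 105 the WT mouse is lowest and the Homo_KO mouse highest for each arm, and the libraries at 141 and 152 hold the highest levels.

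The arms were also compared with each other inside each library, as a description. miR-129-5p exceeded miR-129-2-3p in all 9, by a mean of log2 1.53 ± 0.38 (SD, n = 9 libraries). The excess was 1.91, 1.91 and 1.65 in WT replicates 1, 2 and 3, 1.22, 1.40 and 1.18 in Hete_KO, and 0.86, 1.87 and 1.74 in Homo_KO. WT and Hete_KO did not overlap in this excess, and Homo_KO spanned both. How often other arm pairs show such a gap was not counted, so nothing is read from it. In linear terms miR-129-5p was 1.84 to 4.50 times miR-129-2-3p. The 3p arms of the 2 genes were closer to each other. miR-129-2-3p exceeded miR-129-1-3p by 0.11 to 0.30 in 8 libraries and by 1.19 in WT replicate 1, where miR-129-1-3p was at its lowest. Over the 9 libraries Pearson's r was 0.987 between the 3p arms, 0.966 between miR-129-5p and miR-129-2-3p, and 0.945 between miR-129-5p and miR-129-1-3p. These values share the libraries and the normalization, and the arms may share reads.

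The miRNAs with the profile most like that of the 3p arms were sought among the other tested miRNAs by Pearson's r over the 9 libraries with the mean of the 2 arms. The first was miR-30e-5p (r = 0.893), a member of the miR-30 family that is abundant in adipocytes. It was at log2 17.49 ± 0.08 in WT and at 17.83, a shared rank level, in all 6 knockout libraries. The next was miR-203-3p (r = 0.889), a miRNA of skin and other epithelia, with means of 11.89 ± 0.24 (WT), 12.74 ± 0.31 (Hete_KO) and 12.84 ± 0.10 (Homo_KO), with the SD over 3 mice. miR-30d-3p (r = 0.888), miR-26b-3p (r = 0.885), miR-339-3p (r = 0.861) and miR-215-5p (r = 0.849) completed the 6. Of these, miR-203-3p and miR-215-5p, of the p53-responsive miR-192 family, were called in Homo_KO against WT (limma adjusted p = 0.0314 and 0.00942). The Hete_KO mice had a call for miR-215-5p too, with a difference of 2.49 ± 0.28 from WT (SE, limma adjusted p = 0.00339), against 1.92 ± 0.28 in Homo_KO. These 6 were picked for likeness, in the same libraries, to arms chosen for a rise in Homo_KO over WT. Calls among them follow in part from that pick, and nothing is read from them. For miR-129-5p the 4 most alike were miR-3084-3p (r = 0.830), miR-193b-3p (r = 0.827), a miRNA of brown fat, miR-30c-1-3p (r = 0.825) and miR-30d-3p (r = 0.820). None of those 4 was called in any comparison. Of all tested miRNAs, 3.27% were called in Homo_KO against WT, 0.409% in Hete_KO against WT and 0.0% in Homo_KO against Hete_KO. The spans of these miRNAs were smaller than that of the arms: miR-203-3p ran over 11.71 to 12.92 in the 9 libraries and miR-129-1-3p over 1.06 to 6.33.

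**Figure D4:**
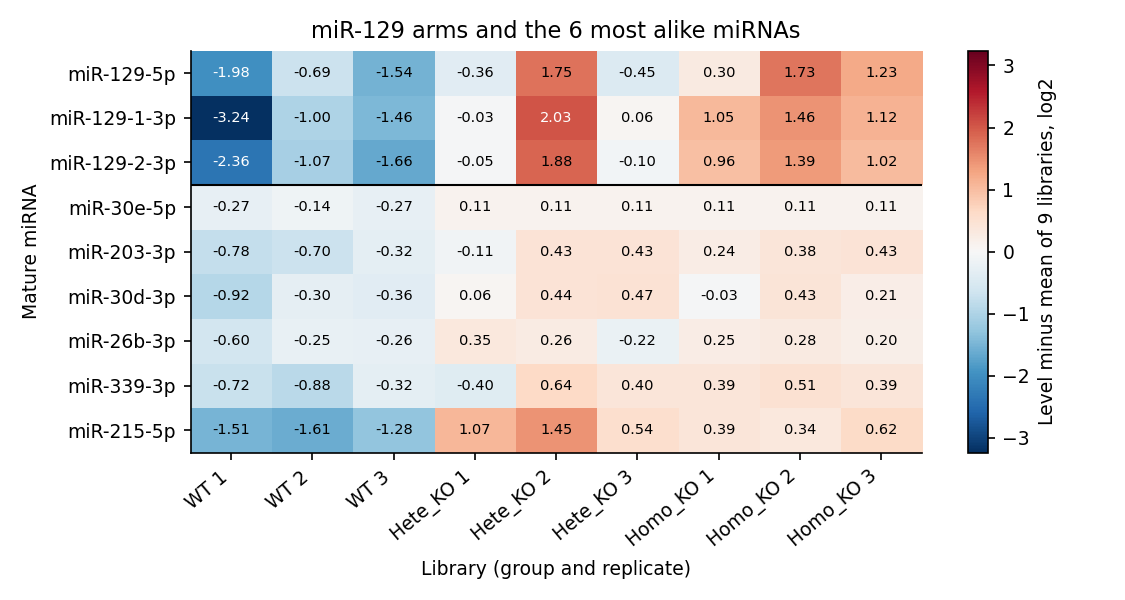
Level minus the mean of 9 libraries (colour and printed value, log2) for the 3 miR-129 arms, above the line, and the 6 tested miRNAs most like the 3p arms (rows) in each library (columns). All rows are below their mean in the WT libraries, and miR-129-1-3p in WT replicate 1 is the lowest cell at -3.24. The rows under the line were picked for likeness to the 3p arms, so their low WT values follow in part from the pick.

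Because miR-129 is known from the nervous system, other brain-enriched or neuronal miRNAs were read beside it. Of 22 listed, 17 were tested and none was called in any of the 3 comparisons. Of all tested miRNAs, 3.27% were called in Homo_KO against WT, 0.409% in Hete_KO against WT and 0.0% in Homo_KO against Hete_KO. With shares this low, nothing is read from the absence of calls. Their median difference was 0.20 in Homo_KO against WT (12 of 17 positive) and -0.03 in Hete_KO against WT (8 of 17 positive). Over all 489 tested miRNAs it was 0.07 (269 positive) and -0.02 (231 positive). Single members of the 17 went both ways, from -0.89 to 0.69 in Homo_KO and from -0.72 to 0.64 in Hete_KO. The most abundant members were miR-708-5p, miR-218-5p, miR-7a-5p and miR-7b-5p. Their differences from WT in Homo_KO were 0.25 ± 0.25, 0.14 ± 0.14, 0.18 ± 0.15 and 0.20 ± 0.15 (SE). In Hete_KO they were 0.11 ± 0.25, 0.23 ± 0.14, -0.16 ± 0.15 and -0.12 ± 0.15. The summed level of the 22 was log2 13.10 to 13.30 in WT, 13.15 to 13.45 in Hete_KO and 13.20 to 13.59 in Homo_KO, so the groups overlapped. The most abundant members weigh most in this sum, which says little of the less abundant ones. Of 4 endocrine miRNAs, miR-7a-5p and miR-7b-5p included, 3 were tested and none called, with medians of 0.18 in Homo_KO and -0.12 in Hete_KO.

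The summed level of 7 epithelial miRNAs was log2 11.79 to 12.23 in WT, 12.90 to 12.97 in Hete_KO and 12.80 to 12.96 in Homo_KO, without overlap between WT and either knockout. None of the 7 was at the lowest value throughout a group. Most of the sum was miR-203-3p. For the other 6, among them the miR-200 family, it was 7.30 to 7.83 in WT, 8.00 to 8.49 in Homo_KO, and 11.19, 8.22 and 7.78 in Hete_KO replicates 1, 2 and 3, the last within the WT range. Hete_KO replicate 1, which had most of these 6, had lower miR-129 levels than Hete_KO replicate 2. miR-203-3p was also lower in Hete_KO replicate 1, at 12.38, than in Hete_KO replicate 2, at 12.92. Nothing is read from this pair of mice. The list's median difference was 0.64 in Homo_KO, with 1 of 7 called (miR-203-3p, higher), and 1.47 in Hete_KO with 0 of 7 called, while 3.27% and 0.409% of all tested miRNAs were called in either direction. The part of epithelial RNA in the miR-129 levels was not tested.

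The 4 endothelial miRNAs summed to log2 17.88 to 18.26 in WT, 17.15 to 17.80 in Hete_KO and 17.68 to 17.81 in Homo_KO, so WT lay above both knockout genotypes. The median difference from WT was -0.69 in Homo_KO, where 1 of 4 was called (miR-221-3p, lower), and -0.62 in Hete_KO, where 0 of 4 were. Of all tested miRNAs, 3.27% and 0.409% were called, in either direction. miR-126a-3p, an endothelial marker, differed by -0.27 ± 0.19 in Homo_KO and -0.51 ± 0.19 in Hete_KO (SE). For miR-126a-5p the differences were -0.47 ± 0.14 in Homo_KO and -0.54 ± 0.14 in Hete_KO (SE). No marker of the list was at the lowest value throughout a group, and the list's part in the miR-129 levels was not tested. Skeletal muscle miRNAs varied widely, with sums of 12.24 to 19.19 in WT, 14.28 to 20.10 in Hete_KO and 11.57 to 16.35 in Homo_KO. Hete_KO replicate 2, highest for all 3 arms, was also the highest for muscle. Among the WT mice, replicates 1 and 2 had muscle sums of 18.71 and 19.19 and replicate 3 of 12.24. In a fit with the mean of these 4 muscle miRNAs as a covariate, the Homo_KO differences were 3.29 (miR-129-1-3p), 3.12 (miR-129-2-3p) and 2.71 (miR-129-5p), next to 3.11, 2.82 and 2.49 without it, and neither 3p arm was called. The part of muscle RNA in the miR-129 levels was not tested beyond this fit.

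Of 5 leukocyte miRNAs, 1 (miR-142a-5p) was called higher in Homo_KO, where 1.64% of all tested miRNAs were, and 0 in Hete_KO, with a list median of 0.23 there and 0.09 in Hete_KO. None of 9 adipose and stromal miRNAs (medians 0.12 in Homo_KO and 0.07 in Hete_KO), 3 erythroid miRNAs (-0.53 and -0.70) or 3 liver miRNAs (-0.27 and -0.11) was called against WT. Of all tested miRNAs, 3.27% were called in Homo_KO and 0.409% in Hete_KO, in either direction.

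**Figure D5:**
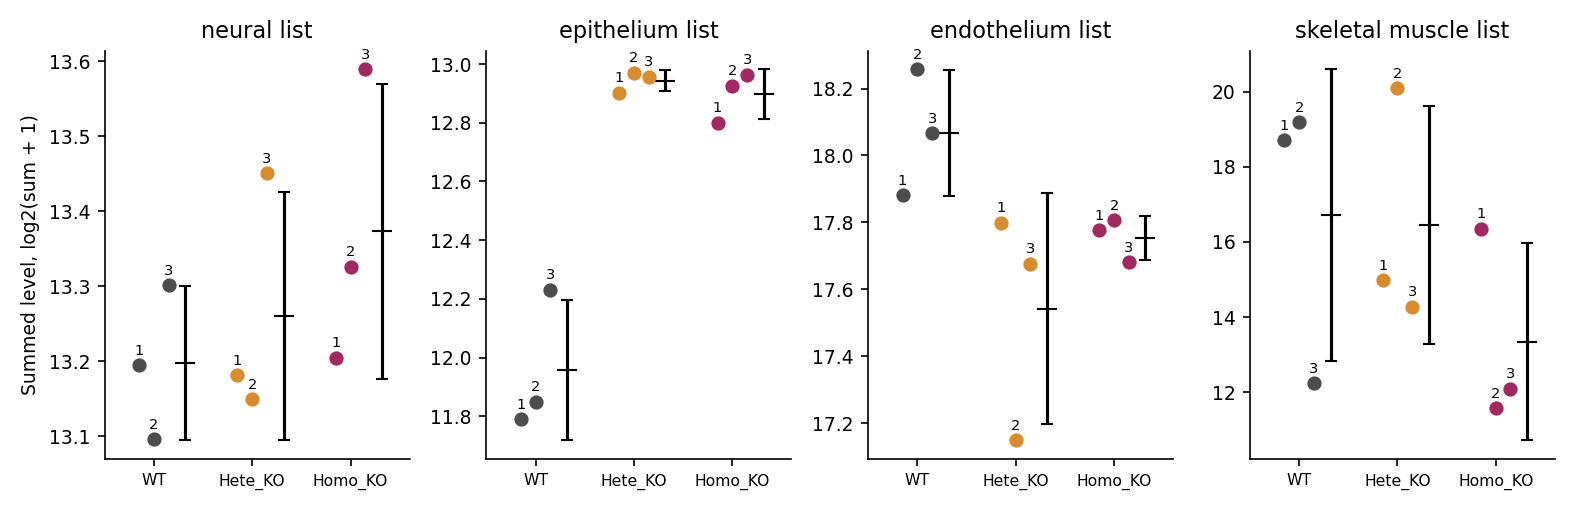
Summed level of 4 marker lists (y axes, log2(sum + 1), each with its own range) by genotype (x axis). Points are mice, numbered by replicate, and bars are the mean ± SD of 3. The epithelial sums of WT lie under all knockout mice, the endothelial sums above them, and the neural and muscle sums overlap.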

How the data were processed

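Small RNA libraries were made from Trizol-extracted RNA with Illumina's TruSeq small RNA kit, per the labels' protocols, and the build was mm10 per the submitters' processing notes. No label or header names an aligner, a counter or a normalization. The deposited files are named for FPKM but hold log2 values from 0 to 19.99. The authors' values were treated as quantile-normalized log2(x + 1), since over the top 300 ranks the libraries differ by at most 0.06 and back-transformed sums span 6681250 to 6681288. Counting intervals cannot be given. Tested miRNAs had to exceed the lowest value in 3 or more libraries and to average 3.46, log2(10 + 1), or more, which kept 489 of 860 miRNAs and all 3 arms, both 3p arms only through their knockout levels. limma 3.58.1 in R 4.3.3 was fitted to all 9 libraries (eBayes with a variance trend, no pseudocount added), with Benjamini-Hochberg adjustment over the 489 miRNAs and a threshold of 0.05, and was checked on simulated data. Groups came from the genotype label.

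The members and the miRNA lists were chosen with earlier results of these data known. miRNAs named beside the arms are the 6 and 4 most alike, those sharing a seed or within 1 Mb, and each list's most abundant; the summed epithelial level without miR-203-3p was added after values were seen, as was the naming of miR-221-3p and miR-142a-5p. Of the 860 names, 698 matched a RefSeq mature entry. Alternatives changed the pseudocount, the filter (none, or stricter), the scaling (median, or quantile again), the variance trend, the library weights, a block by replicate number, the groups fitted, a covariate (muscle miRNA mean or tie count) and the libraries, each left out in turn. Figures were drawn with matplotlib 3.10.9.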

Additional observations from a re-analysis of the deposited data

How the results depend on the processing

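All 171 member differences under the 19 alternatives (9 of them leaving out a library) were positive, but nothing is read from this count. Many repeat the main value: the filter, variance trend, block, groups fitted and libraries of a group not compared cannot change a difference. Those of Homo_KO against WT also had a sign given by the choice of the family. Under the stricter filter (mean of at least 6.66) no arm was tested. With log2(x + 10), the Homo_KO difference was 1.86 for miR-129-1-3p and 1.89 for miR-129-2-3p, and with the tie count as a covariate miR-129-1-3p, miR-129-2-3p and miR-129-5p were at 1.88, 1.70 and 1.16. Without each library in turn they ran over 2.44 to 3.56, 2.49 to 3.14 and 2.16 to 2.88 in the same order. Without a WT or Homo_KO library neither 3p arm was called (limma adjusted p = 0.0537 to 0.145 for miR-129-1-3p and 0.0526 to 0.120 for miR-129-2-3p), nor with the muscle covariate (0.0935 and 0.0531) or the tie count (0.198 and 0.194). Homo_KO against WT chose the family, so these p-values are given as a description. In Hete_KO against WT miR-129-1-3p and miR-129-2-3p passed with sample weights (2.79 and 2.21, limma adjusted p = 0.0232 and 0.0200). Without each library in turn they ran over 1.91 to 3.04 and 1.63 to 2.61, and miR-129-5p over 0.997 to 2.10. In Homo_KO against Hete_KO these ranges were 0.16 to 1.20, 0.21 to 1.20 and 0.39 to 1.49, with no call. The cause of these moves was not tested.

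With the replicate number as a block, the Hete_KO differences were 2.58 (miR-129-1-3p), 2.28 (miR-129-2-3p) and 1.72 (miR-129-5p), and all 3 passed (limma adjusted p = 0.0349, 0.0337 and 0.0349). Same-numbered libraries had correlations of their deviations from the group means from -0.282 to 0.548, and different-numbered ones from -0.702 to 0.539. These ranges overlap and do not settle whether the numbers pair the mice, so no pairing was assumed. In each genotype replicate 2 was the highest for every arm.

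The number of miRNAs called, 16 in Homo_KO and 2 in Hete_KO against WT, was 9 and 2 without a filter, 25 and 10 with the stricter filter, 74 and 34 with sample weights, 25 and 15 with the block, and 3 and 2 with the muscle covariate. With the tie count as a covariate it was 0 and 0 by limma, with 101 and 64 at an unadjusted p under 0.05. In Hete_KO it was 1 without a variance trend and 1 with only the compared groups. It ran from 2 to 25 and from 1 to 24 as each library was left out. Since the read depth is unknown, its limit on low levels, such as the linear level of 1.09 of miR-129-1-3p in WT replicate 1, cannot be given.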
